A study of Mus musculus with 24 samples.

Results

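The 9 genes described here, Irf4, Egr2, Klf4, Pparg, Batf3, Pou2f2, Bhlhe40, Maf and Irf5, encode transcription factors tied to the polarization of macrophages. They were taken by symbol from tables of 54429 mouse genes, and all 9 passed the filter on low counts. RNA was sequenced from macrophages grown from the bone marrow of C57BL/6N mice, with 6 libraries in each of 4 groups. The groups were knockout (MK2 KO) with IL-4, knockout without IL-4, wild type (MK2 WT) with IL-4, and wild type without IL-4. The labels call cells with IL-4 M2 and cells without it M0. Murine IL-4 was given at 10 ng/ml for 24 h, and every culture, untreated ones included, had been grown in murine M-CSF at 10 ng/ml and replated on day 7. MK2 is the p38-activated kinase MAPKAP kinase-2, encoded by Mapkapk2, and the series title concerns angiogenic factors that tumor-associated macrophages make under its control. Marrow cultures stand in for such macrophages here. The sources used here give neither the age and sex of the mice nor the deleted part of Mapkapk2. They do not say whether libraries of a group came from separate animals, so the p-values speak only of library-to-library spread, which may be technical.

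Macrophages change their gene programme with the signals they meet. IL-4 binds a receptor that works through JAK kinases and the factor STAT6, and the alternatively activated state that follows is known from mouse cells to involve further factors that IL-4 induces, among them IRF4, KLF4, EGR2 and PPAR-gamma. IRF5 is known for promoting inflammatory cytokines, and MAF, a leucine zipper factor, for IL-10 expression and macrophage identity. BATF3 and POU2F2 (OCT2) are best known from dendritic cells and B cells, and BHLHE40 is a repressor that binds E-boxes.

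Total counts were 7893809 to 13492507 per library. Levels are in CPM, counts scaled to the effective library size with TMM factors. Mapkapk2 was 47.8 to 63.4 CPM over the 12 libraries labelled knockout, against 100.3 to 139 CPM over the 12 labelled wild type, so the labels separated fully and some transcript was still counted in knockout. All 12 macrophage markers were detected in every group, with a summed level of 12071 to 14594 CPM in knockout with IL-4, 13663 to 16602 CPM in knockout without it, 14837 to 19324 CPM in wild type with it and 15728 to 21200 CPM in wild type without it. With IL-4, 6 of the 12 were lower and 1 higher in each genotype, and between the genotypes 3 were lower and 1 higher in knockout, in both states. In bulk RNA, fewer cells of a type and less RNA per cell cannot be told apart. The labels number the libraries of replicates 4 to 6 in 1 run and those of replicates 1 to 3 in an earlier one, except 3 numbered after both, namely knockout replicate 2 with IL-4, wild-type replicate 2 with IL-4 and wild-type replicate 3 without it. The labels do not say what these numbers stand for. Values within replicates 1 to 3 and within replicates 4 to 6 are given beside the results they touch.

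IL-4 changed 8 of the 9 genes in each genotype. Irf4, Egr2, Klf4, Pparg, Batf3 and Bhlhe40 rose, Pou2f2 and Maf fell, and Irf5 did not pass the test. In knockout, 23.6 percent of the 12797 tested genes passed an adjusted p of 0.05 in edgeR's quasi-likelihood test, 12.2 percent higher and 11.4 percent lower. In wild type the share was 16.4 percent, 8.49 percent higher and 7.95 percent lower. The median log2 fold change of the 9 genes was 1.68 in knockout and 1.41 in wild type, against -0.0038 and -0.016 over all tested genes. In knockout the libraries with and without IL-4 did not overlap in 6 genes that were higher and 2 that were lower, where 14 percent of all tested genes did not overlap. In wild type this was so for 5 higher and 2 lower, where 8.16 percent of all tested genes did not overlap, and Batf3 and Irf5 overlapped.

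**Figure D1:**
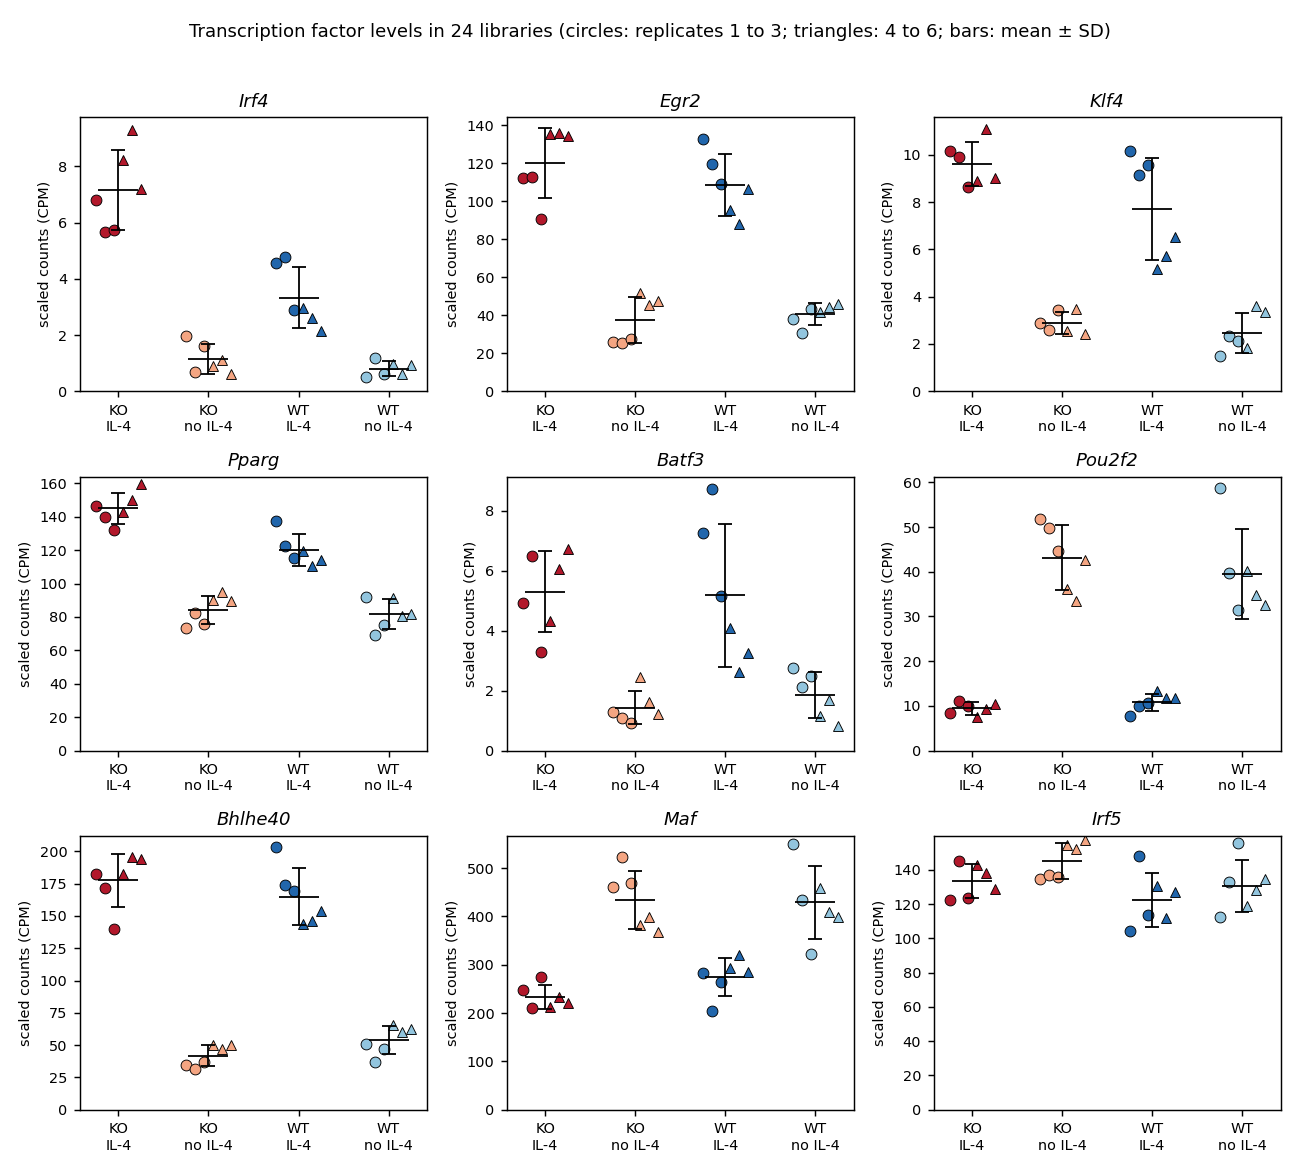
Levels of the 9 genes in scaled counts (CPM, linear axes from 0) in 24 libraries, by genotype and IL-4. Circles are replicates 1 to 3, triangles replicates 4 to 6, and bars the mean ± SD of 6. Irf4 was 5.65 to 9.30 CPM in knockout with IL-4, above all 6 wild-type libraries with IL-4, and Irf5 overlapped in every comparison.

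Among the factors known to act with STAT6, Irf4 had the largest fitted rise. Irf4 (chromosome 13, 30749226 to 30766976, plus strand, mm10) had 5.65, 7.01 and 9.30 CPM as lowest, median and highest of 6 knockout libraries with IL-4, against 0.602, 1.00 and 1.97 CPM in knockout without it. Wild type had 2.13, 2.93 and 4.77 CPM with IL-4, against 0.502, 0.777 and 1.18 CPM without it. Every library with IL-4 was above every library without it, in both genotypes. The log2 fold change was 2.63 in knockout (SE 0.25, adjusted p = 1.52e-08) and 2.04 in wild type (SE 0.27, adjusted p = 5.6e-06). These levels rest on few reads, with 400 summed counts in knockout with IL-4 and 68 without it, and 202 in wild type with IL-4 and 46 without it. The filter on low counts could be passed through the groups with IL-4 alone, where Irf4 was high.

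Klf4 and Egr2 are zinc finger factors. Klf4, which is known to act with STAT6 in mouse macrophages (chromosome 4, 55527143 to 55532466, minus strand, mm10), had 8.62, 9.45 and 11.1 CPM in knockout with IL-4, against 2.41, 2.75 and 3.48 CPM without it. In wild type it had 5.19, 7.82 and 10.2 CPM with IL-4, against 1.51, 2.23 and 3.59 CPM without it. Neither genotype showed any overlap, and the log2 fold change was 1.72 in knockout (SE 0.19, adjusted p = 9.2e-08) and 1.65 in wild type (SE 0.19, adjusted p = 5.86e-07). Egr2 (chromosome 10, 67535475 to 67542188, plus strand, mm10), which belongs to the early growth response family, had 90.7, 124 and 136 CPM in knockout with IL-4, against 25.5, 36.6 and 51.9 CPM without it. In wild type Egr2 had 87.9, 108 and 133 CPM with IL-4, against 30.5, 42.6 and 46.2 CPM without it. Egr2 libraries did not overlap in either genotype, and the log2 fold change was 1.68 in knockout (SE 0.17, adjusted p = 3.76e-08) and 1.41 in wild type (SE 0.16, adjusted p = 1.06e-06).

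Sequences before a start site of each of these 3 genes are shown because the genes rose together. They are RefSeq promoter windows on GRCm38.p6, up to 250 bases before a start site, printed in the direction of the gene and without exon bases, and capitals mark motif matches.
Irf4, chr13:30748983-30749225, plus strand: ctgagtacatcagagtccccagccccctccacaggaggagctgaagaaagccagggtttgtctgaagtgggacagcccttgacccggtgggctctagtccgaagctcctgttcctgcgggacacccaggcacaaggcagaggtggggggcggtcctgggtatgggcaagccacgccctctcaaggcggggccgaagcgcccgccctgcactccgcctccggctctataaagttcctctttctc
Egr2, chr10:67537619-67537868, plus strand: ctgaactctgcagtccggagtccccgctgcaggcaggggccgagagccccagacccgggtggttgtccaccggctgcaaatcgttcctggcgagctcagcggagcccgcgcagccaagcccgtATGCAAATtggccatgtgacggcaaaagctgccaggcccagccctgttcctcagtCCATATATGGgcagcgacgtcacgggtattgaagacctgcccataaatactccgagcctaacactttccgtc
Klf4, chr4:55532476-55532725, minus strand: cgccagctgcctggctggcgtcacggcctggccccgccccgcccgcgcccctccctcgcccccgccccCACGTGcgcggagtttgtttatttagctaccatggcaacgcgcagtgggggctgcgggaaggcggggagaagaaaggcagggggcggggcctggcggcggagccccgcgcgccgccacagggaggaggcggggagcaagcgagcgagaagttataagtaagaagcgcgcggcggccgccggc
The motifs were searched on both strands. They were STAT sites (TTC and GAA with 4 or 3 bases of any kind between them), the E-box CACGTG, the octamer ATGCAAAT, the AP-1 site TGANTCA, the interferon-stimulated response element (GAAA and GAAA with 2 bases of any kind between them), the EGR site GCGTGGGCG and the CArG box. The Irf4 window held none of them. The Egr2 window, 1 of 5 in RefSeq for this gene, held an octamer from -127 to -120 and a CArG box from -72 to -63 relative to the start site, with no overlap between them. It is shown as 1 of 3 nearly coinciding windows that hold both, and of the other 2 windows 1 held an E-box and 1 another CArG box. The window shown lies inside the annotated span of Egr2, which begins at 67535475, and precedes an inner start site. Its octamer and CArG box therefore cannot be read as sequence upstream of the whole gene. Only the window with the E-box, which ends at 67535474, lies before that span. The Klf4 window held 1 E-box, from -182 to -177. Among the other members, the windows of Pparg, Pou2f2 and Irf5 held none of the motifs. The Batf3 window held a STAT site with a spacer of 3, from -239 to -231, and an E-box, from -247 to -242. Its first base lies in an annotated exon and 163 of its bases are exon bases, so these matches cannot be read as sequence upstream of the gene. Over 32851 windows of the same length, 1.6 percent held the octamer, 1.47 percent a CArG box and 6.02 percent the E-box. STAT sites were in 5.85 percent of windows with the spacer of 4 and 7.02 percent with that of 3, the AP-1 site in 6.75, the interferon-stimulated response element in 2.98 and the EGR site in 0.536. Of the 9 genes 7 had a window in the RefSeq table, and Maf and Bhlhe40 had none. A match is a description of letters and not a site of binding.

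Pparg (chromosome 6, 115360951 to 115490399, plus strand, mm10) encodes the fatty acid-sensing nuclear receptor PPAR-gamma, and it rose by less than the other risers. It had 132, 145 and 159.5 CPM in knockout with IL-4, against 73.5, 85.7 and 94.7 CPM without it. Wild-type levels of Pparg were 111, 117 and 137 CPM with IL-4, against 68.9, 81.3 and 91.9 CPM without it. Neither genotype overlapped, and the log2 fold change was 0.78 in knockout (SE 0.08, adjusted p = 1.4e-08) and 0.55 in wild type (SE 0.08, adjusted p = 7.24e-06). As fold changes these are 1.72 in knockout and 1.47 in wild type.

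Of the other 2 risers, Bhlhe40 was read deeply and Batf3 was not. Bhlhe40, the E-box repressor (chromosome 6, 108660629 to 108666925, plus strand, mm10), had 139.9, 182 and 195 CPM in knockout with IL-4, against 31.8, 42.0 and 50.4 CPM without it. Its wild-type levels were 144, 162 and 203 CPM with IL-4, against 37.0, 55.5 and 65.7 CPM without it. Groups of Bhlhe40 stood apart in both genotypes, and the log2 fold change was 2.08 in knockout (SE 0.14, adjusted p = 3.23e-11) and 1.61 in wild type (SE 0.13, adjusted p = 3.66e-09). Batf3, a leucine zipper factor that pairs with JUN proteins (chromosome 1, 191097847 to 191108945, plus strand, mm10), had 3.29, 5.48 and 6.73 CPM in knockout with IL-4, against 0.908, 1.24 and 2.44 CPM without it. Batf3 in wild type had 2.62, 4.61 and 8.74 CPM with IL-4, against 0.806, 1.90 and 2.76 CPM without it, and 5 of 6 libraries with IL-4 were above all of those without it. The log2 fold change of Batf3 was 1.87 in knockout (SE 0.31, adjusted p = 5.33e-05) and 1.49 in wild type (SE 0.30, adjusted p = 0.000868). The 9 dendritic cell markers, a cell type in which Batf3 is known, summed to 3.88 to 6.48 CPM in knockout with IL-4 and 3.70 to 7.49 CPM without it, and to 3.96 to 5.71 CPM in wild type with IL-4 and 3.55 to 5.87 CPM without it. Of the 3 markers that could be tested, 1 was higher with IL-4 in knockout and 0 in wild type. It was Batf2 (0.62), which is also counted among the AP-1 and BATF genes below, and Zbtb46 and Ccr7 were not called.

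Pou2f2 and Maf went the other way. Pou2f2, an octamer-binding factor (chromosome 7, 25087344 to 25179726, minus strand, mm10), had 7.44, 9.61 and 11.1 CPM in knockout with IL-4, against 33.6, 43.6 and 51.9 CPM without it. It had 7.81, 11.1 and 13.3 CPM in wild type with IL-4, against 31.4, 37.3 and 58.7 CPM without it. All libraries with IL-4 lay below all those without it, and the log2 fold change was -2.18 in knockout (SE 0.15, adjusted p = 5.88e-11) and -1.86 in wild type (SE 0.15, adjusted p = 1.69e-09). The 9 markers of B cells, where Pou2f2 is best known, summed to 30.2 to 38.6 CPM in knockout with IL-4 and 30.9 to 39.4 CPM without it. In wild type they summed to 37.3 to 61.3 CPM with IL-4 and 35.8 to 74.7 CPM without it, and Vpreb3 had 0 counts in both knockout groups. Of the 4 markers that could be tested, Cd22 (0.91) and Ebf1 (1.90) were higher and Ighm (-1.20) lower with IL-4 in knockout. In wild type Cd22 (0.44) was higher. Without IL-4, Ebf1 (-3.29) and Cd22 (-0.85) were lower in knockout than in wild type, and with IL-4 0 of the 4 markers were called between the genotypes. Their part in the result was not tested.

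Maf, a large MAF factor (chromosome 8, 115682942 to 115707794, minus strand, mm10), had the highest CPM of the 9 genes and lost less than Pou2f2 on the log2 scale. It had 209.9, 227 and 274 CPM in knockout with IL-4, against 368, 431 and 523 CPM without it. In wild type Maf had 204, 284 and 321 CPM with IL-4, against 323, 422 and 549.5 CPM without it. Neither genotype overlapped, although in wild type the nearest libraries were 321 CPM with IL-4 and 323 CPM without it. The log2 fold change was -0.90 in knockout (SE 0.11, adjusted p = 1.09e-06) and -0.64 in wild type (SE 0.11, adjusted p = 0.000189). An antisense gene, Gm15655, overlaps Maf and held 5824 counts over the 24 libraries against 79790 for Maf. The sources used here do not say whether the libraries kept strand, so reads of such pairs cannot be told apart.

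Irf5 (chromosome 6, 29526625 to 29541871, plus strand, mm10), the member known for the inflammatory state, overlapped between IL-4 and no IL-4. It had 122, 134 and 145 CPM in knockout with IL-4, against 135, 144 and 157 CPM without it, and 104, 120.2 and 148 CPM in wild type with IL-4, against 112, 131 and 156 CPM without it. The log2 fold change was -0.12 in knockout (interval of 2 SE on either side -0.28 to 0.043, adjusted p = 0.336) and -0.09 in wild type (-0.25 to 0.074, adjusted p = 0.505). The antisense neighbour Tnpo3 overlaps Irf5 and held 19472 counts against 31326 for Irf5, so this level is uncertain for the same reason.

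The 8 calls with IL-4 were made in either set of replicates on its own, in both genotypes. In replicates 1 to 3 alone 11.5 percent of tested genes were called in knockout and 6.67 percent in wild type, and in replicates 4 to 6 alone 21.1 percent in knockout and 13.1 percent in wild type. Fitted sizes were unequal between the sets, a difference that was not tested. In knockout the log2 fold change of Irf4 was 2.08 in replicates 1 to 3 and 3.18 in replicates 4 to 6, and in wild type it was 2.42 in replicates 1 to 3 and 1.59 in replicates 4 to 6. Klf4 in wild type was 2.27 in replicates 1 to 3 and 1.00 in replicates 4 to 6, and Bhlhe40 in wild type was 2.04 in replicates 1 to 3 and 1.23 in replicates 4 to 6. Libraries with IL-4 also had lower levels of genes of dividing cells. The 10 listed genes summed to 241 to 440.5 CPM in knockout with IL-4 against 489.8 to 1029.9 CPM without it, and to 192 to 373 CPM in wild type with IL-4 against 358 to 619 CPM without it. All 10 were lower in knockout and 8 in wild type, none was at 0 counts in any group, and their part in the results was not tested.

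The second question was whether the factors differed between knockout and wild type once IL-4 was present. Irf4 and Pparg were higher in knockout, and the other 7 did not pass the test. Over all tested genes 4.59 percent passed an adjusted p of 0.05 in edgeR's quasi-likelihood test, 1.51 percent higher and 3.09 percent lower, and the median log2 fold change of the 9 genes was 0.12 against 0.0060 over all genes. Irf4 had 6.80, 5.65, 5.72, 8.22, 9.30 and 7.21 CPM in knockout replicates 1 to 6, against 4.57, 4.77, 2.90, 2.95, 2.62 and 2.13 CPM in wild-type replicates 1 to 6. Every knockout library was above every wild-type library, which held for 3.63 percent of all tested genes in one direction or the other and for none of the other 8 factors. The log2 fold change of Irf4 was 1.09 (SE 0.23, adjusted p = 0.00292), a ratio of 2.13.

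Pparg had 147, 139.9, 132, 143, 149.8 and 159.5 CPM in knockout replicates 1 to 6 with IL-4, against 137, 123, 115, 119, 111 and 114 CPM in wild type. Of the 6 knockout libraries 5 were above all of wild type. The log2 fold change was 0.27 (SE 0.07, adjusted p = 0.0289), a ratio of 1.21. This call was lost when any of 7 libraries was left out, namely wild-type replicate 3, 4, 5 or 6 or knockout replicate 1, 5 or 6, with adjusted p up to 0.0792, whereas Irf4 passed with any library left out (adjusted p at most 0.0121).

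Intervals of 2 SE on either side held 0 for Egr2 (log2 fold change 0.15, -0.17 to 0.46), Klf4 (0.31, -0.032 to 0.66), Batf3 (0.02, -0.54 to 0.57), Pou2f2 (-0.19, -0.51 to 0.13), Bhlhe40 (0.11, -0.15 to 0.36) and Irf5 (0.12, -0.040 to 0.29). For Maf the log2 fold change was -0.24 (-0.46 to -0.014) with adjusted p = 0.351. Groups of these 7 genes overlapped.

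Both calls were made in replicates 4 to 6 alone and not in replicates 1 to 3 alone. In replicates 1 to 3 alone 0 of the 9 factors were called, where 2.37 percent of tested genes were, and Irf4 had a log2 fold change of 0.57 (adjusted p = 0.666) and Pparg 0.16 (adjusted p = 0.759). In replicates 4 to 6 alone 6 were called, where 8.25 percent of tested genes were. Irf4 (1.68, adjusted p = 0.000111), Klf4 (0.73, adjusted p = 0.0333), Egr2 (0.48, adjusted p = 0.000243), Pparg (0.39, adjusted p = 0.000436) and Bhlhe40 (0.36, adjusted p = 0.000259) were higher in knockout there, and Maf was lower (-0.43, adjusted p = 0.000117). In replicates 1 to 3 the log2 fold changes were -0.01 for Klf4, -0.19 for Egr2, -0.14 for Bhlhe40 and -0.03 for Maf. The difference between the sets was not tested. Knockout libraries with IL-4 had 8.62 to 10.1 CPM of Klf4 in replicates 1 to 3 and 8.87 to 11.1 CPM in replicates 4 to 6. Wild-type libraries with IL-4 had 9.14 to 10.2 CPM in replicates 1 to 3 and 5.19 to 6.50 CPM in replicates 4 to 6, with no overlap between the sets.

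**Figure D2:**
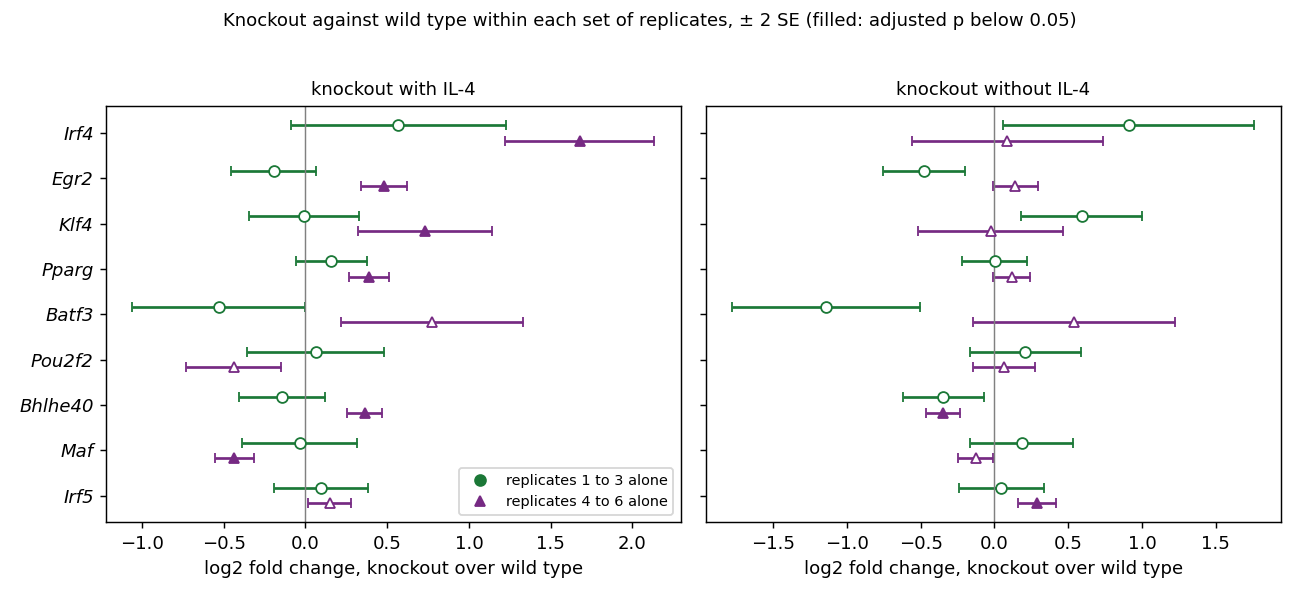
Log2 fold changes of knockout over wild type with IL-4 (left) and without IL-4 (right), fitted in replicates 1 to 3 alone (green circles) and in replicates 4 to 6 alone (purple triangles), with bars of 2 SE on either side. Filled symbols passed an adjusted p of 0.05. With IL-4, 0 genes are filled in replicates 1 to 3 and 6 in replicates 4 to 6.

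Stromal markers moved with genotype. The 15 listed genes, fibroblast collagens among them, summed to 9.93 to 23.9 CPM in knockout with IL-4 and 122 to 172 CPM in wild type with IL-4. Without IL-4 they summed to 9.98 to 30.0 CPM in knockout, where Lum had 0 counts, and 128 to 199 CPM in wild type. All 13 that could be tested were lower in knockout in both states. Their part in the genotype results was not tested.

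Without IL-4 no factor passed the test between knockout and wild type, by edgeR, DESeq2 or limma, where 4.52 percent of all tested genes were called by edgeR, 1.1 percent higher and 3.42 percent lower. At an unadjusted p under 0.05 there was 1 of the 9, Bhlhe40, where 1928 of all 12797 tested genes were under it. Bhlhe40 had 34.8, 31.8, 36.9, 50.2, 47.1 and 50.4 CPM in knockout replicates 1 to 6, against 50.6, 37.0, 46.7, 65.7, 60.5 and 62.9 CPM in wild type. The ranges overlapped over all 6 replicates, and both genotypes were higher in replicates 4 to 6. Its log2 fold change was -0.36 (SE 0.13, adjusted p = 0.155), and it passed in the fit that left out wild-type replicate 2 (-0.45, adjusted p = 0.0394). All 9 genes overlapped between the genotypes, where 3.48 percent of all tested genes did not.

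In replicates 4 to 6 alone 2 of the 9 were called without IL-4, where 7.47 percent of tested genes were. Bhlhe40 was lower in knockout (-0.35, adjusted p = 0.000889) and Irf5 was higher (0.29, adjusted p = 0.00933). In replicates 1 to 3 alone 3.37 percent of tested genes were called and 0 of the 9, with -0.35 for Bhlhe40 (adjusted p = 0.237) and 0.05 for Irf5 (adjusted p = 0.944). The same set gave -1.14 for Batf3 (adjusted p = 0.0763) and -0.48 for Egr2 (adjusted p = 0.0875), which were 0.54 and 0.14 in replicates 4 to 6. Egr2 in knockout without IL-4 was 25.5 to 27.7 CPM in replicates 1 to 3 and 45.4 to 51.9 CPM in replicates 4 to 6, with no overlap. Wild type without IL-4 had 30.5 to 43.5 CPM of Egr2 in replicates 1 to 3 and 41.7 to 46.2 CPM in replicates 4 to 6.

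The test of whether the response to IL-4 differed between the genotypes called 0 of the 9 factors and 0 of 12797 genes by edgeR, with 2 factors and 390 genes at an unadjusted p under 0.05. DESeq2 called 1 gene and limma 3, and 0 of the 9 by either. The median of the difference was 0.23 over the 9 genes, against 0.0093 over all tested genes, and the median size of the response over all tested genes was 0.167 in knockout and 0.154 in wild type on the log2 scale. The largest difference relative to its error was that of Bhlhe40, at 0.47 (SE 0.19, unadjusted p = 0.0189, adjusted p = 1). Pparg differed by 0.23 (SE 0.11, unadjusted p = 0.0403, adjusted p = 1) and Irf4 by 0.58 (SE 0.38, unadjusted p = 0.142, adjusted p = 1). The interval of 2 SE on either side ran from -0.19 to 1.35 for Irf4, from -0.19 to 0.73 for Egr2 and from -0.47 to 0.61 for Klf4. In replicates 4 to 6 alone Bhlhe40 passed (0.71, adjusted p = 0.00106), where 0.164 percent of tested genes did, and in replicates 1 to 3 alone its difference was 0.21 (adjusted p = 1). Irf4 and Klf4 had differences of -0.34 and -0.60 in replicates 1 to 3, opposite in sign to the fit of all libraries.

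**Figure D3:**
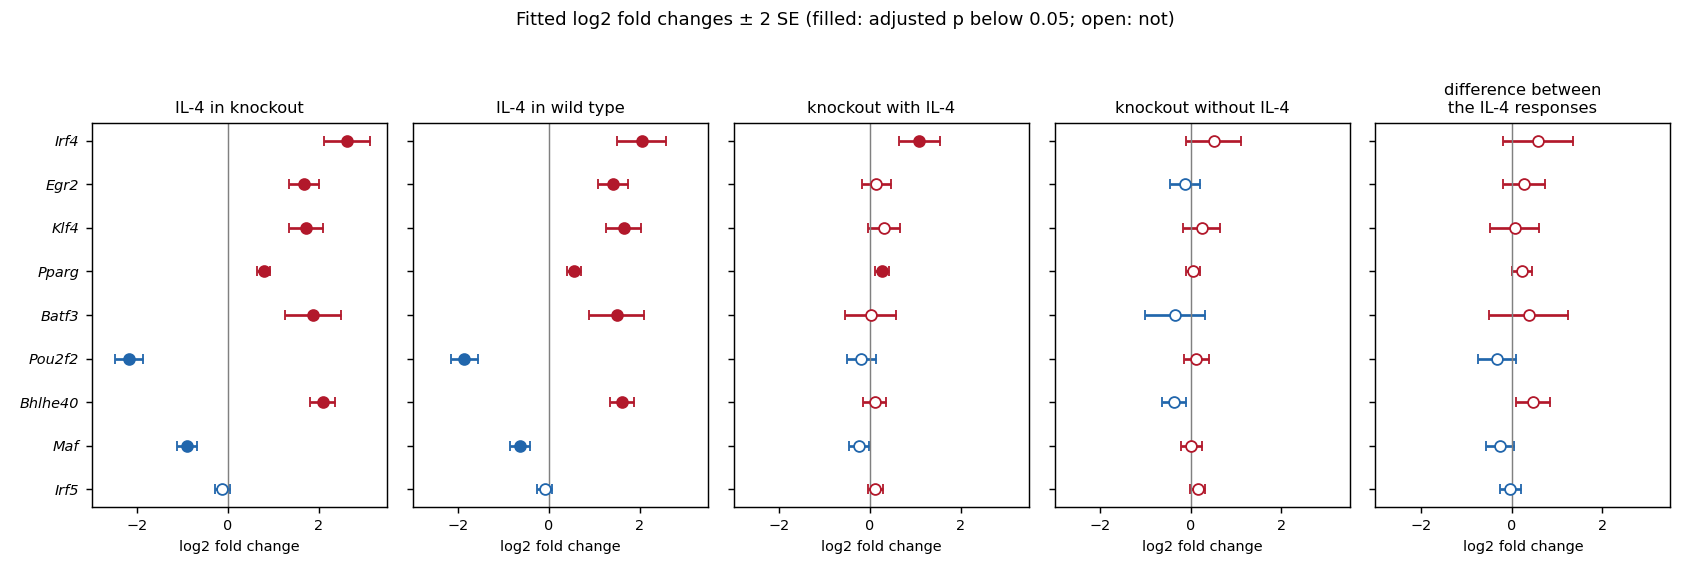
Fitted log2 fold changes of the 9 genes in the 5 comparisons, with bars of 2 SE on either side. Filled points passed an adjusted p of 0.05, red is above 0 and blue below. With IL-4, 8 points are filled in knockout and 8 in wild type, and 2 are filled for knockout over wild type with IL-4, at 1.09 for Irf4 and 0.27 for Pparg.

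Levels can be set between genes on the deposited length-scaled values (GETMM). In knockout with IL-4 the mean GETMM was 241 for Pparg, 129.7 for Irf5, 112 for Egr2, 101 for Bhlhe40, 71.9 for Maf, 13.2 for Batf3, 5.58 for Klf4, 4.04 for Pou2f2 and 2.64 for Irf4. Pparg stood apart above the rest. Neighbours in the order from Irf5 to Maf overlapped with each other, and so did Pou2f2 with Irf4, while Maf, Batf3 and Klf4 each stood apart from the next. Knockout without IL-4 was led by Irf5 (143), Pparg (142) and Maf (136), which overlapped. Below them came Egr2 (35.2), Bhlhe40 (24.2), Pou2f2 (18.7), Batf3 (3.58), Klf4 (1.70) and Irf4 (0.431), with overlap from Egr2 to Bhlhe40 and from Bhlhe40 to Pou2f2.

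In wild type with IL-4 the order was Pparg (199.96), Irf5 (119), Egr2 (102), Bhlhe40 (94.4), Maf (85.0), Batf3 (12.9), Pou2f2 (4.65), Klf4 (4.49) and Irf4 (1.23). Pparg again stood apart, the 4 genes from Irf5 to Maf overlapped as neighbours with each other, and so did Pou2f2 and Klf4. Wild type without IL-4 was led by Pparg (136), Maf (132) and Irf5 (127), which overlapped, then came Egr2 (37.9), Bhlhe40 (30.7), Pou2f2 (16.9), Batf3 (4.57), Klf4 (1.43) and Irf4 (0.296). There Egr2, Bhlhe40 and Pou2f2 overlapped as neighbours, and so did Batf3 and Klf4. Irf4 was last in each group, and its GETMM did not overlap with that of the next gene except in knockout with IL-4. Pou2f2 was above Klf4 and Batf3 without IL-4 and below Batf3 with it, in both genotypes.

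**Figure D4:**
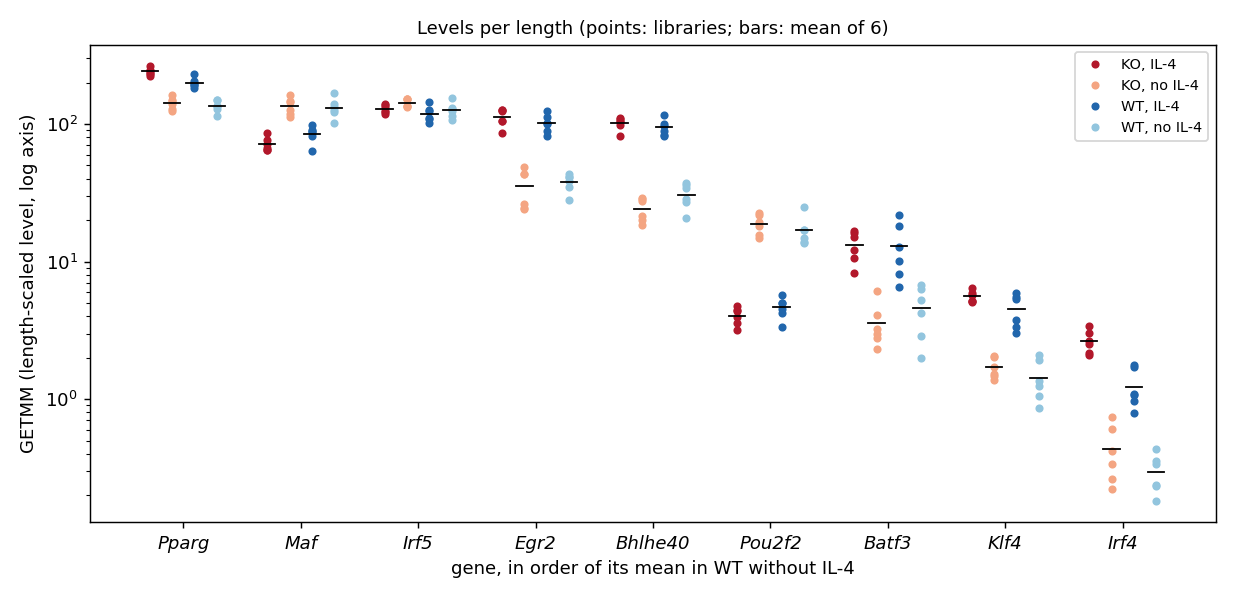
Length-scaled level (GETMM, log axis) of the 9 genes in each library, with groups side by side and bars at the mean of 6. In each group Irf4 has the lowest mean, from 0.296 in wild type without IL-4 to 2.64 in knockout with IL-4.

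Spread between libraries of a group was unequal among the factors. The coefficient of variation of CPM was 6.47 to 11 percent for Pparg and 7.17 to 13 percent for Irf5 over the 4 groups. It was 20.0 to 47.0 percent for Irf4 and 25.6 to 46.1 percent for Batf3, which were read at few counts. Egr2 had 32.5 percent in knockout without IL-4 and 14.0 to 15.2 percent in the other groups.

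Relatives, partners and targets of the 9 were given as lists, whose counts are set against the 23.6 percent called in knockout and 16.4 percent in wild type with IL-4. Of 14 genes of the IL-4 receptor pathway 5 rose and 4 fell in knockout, and 4 rose and 3 fell in wild type. The kinase gene Jak2 rose by 1.69 in knockout and 1.26 in wild type on the log2 scale. The feedback inhibitors Cish (4.31 in knockout, 3.26 in wild type) and Socs1 (2.32 in knockout, 2.18 in wild type) rose too, and the phosphatase gene Ptpn6 fell (-0.44 in knockout, -0.38 in wild type). Stat6 itself, named after its values were seen, did not pass in knockout (-0.03, adjusted p = 0.702) or wild type (-0.05, adjusted p = 0.449). Of 15 tested effector genes of alternative activation, from 20 listed, 14 rose and 0 fell in each genotype. Among them were the lectin gene Mgl2 (6.06 in knockout, 4.36 in wild type) and the arginine transporter gene Slc7a2 (4.31 in knockout, 3.26 in wild type). The listed genes were picked as known for the state that IL-4 brings, and could pass the count filter through the groups with IL-4 alone. Their count is therefore a description and not a test.

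Other family members did not follow the 9 as a block. Of 9 tested relatives of the IRF genes 1 rose and 3 fell in knockout, and 1 rose and 2 fell in wild type. Irf1 rose (1.26 in knockout, 0.93 in wild type) and Irf9 (-0.47 in knockout, -0.34 in wild type) and Irf7 (-1.04 in knockout, -0.66 in wild type) fell. In the KLF family of 11 tested genes 3 rose and 2 fell in knockout, and 1 rose and 2 fell in wild type, with Klf9 higher (1.42 in knockout, 1.06 in wild type) and Klf11 lower (-0.80 in knockout, -0.60 in wild type). Of 4 tested EGR factors and their NAB corepressors 1 rose and 2 fell in knockout, and 1 rose and 1 fell in wild type. Nab2, which restrains EGR proteins, rose (0.54 in knockout, 0.43 in wild type). The other NAB corepressor gene, Nab1, fell (-0.36 in knockout, -0.42 in wild type), and Egr3 fell in knockout (-2.25, adjusted p = 0.000531).

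Of 9 AP-1 and BATF genes 4 rose and 2 fell in knockout, and 2 rose and 2 fell in wild type, with Fosl2 higher (1.03 in knockout, 0.64 in wild type) and Fos lower (-0.92 in knockout, -0.86 in wild type). In the group with Bhlhe41, clock genes and MiT factors, 4 of 9 rose in knockout and 3 in wild type and 0 fell. Tfec (0.71 in knockout, 0.56 in wild type) and Mitf (0.73 in knockout, 0.53 in wild type), both MiT factors, were among them. Of 7 other MAF and BACH genes 2 rose and 1 fell in knockout, and 4 rose and 1 fell in wild type. Maff, a small MAF factor, rose (1.16 in knockout, 0.70 in wild type). The 1 tested octamer factor, Pou2f1, was not called (-0.03 in knockout, 0.14 in wild type).

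Among 10 partners of PPAR-gamma 1 rose and 1 fell in knockout, and 1 rose in wild type, the coactivator gene Ppargc1b (1.17 in knockout, 1.07 in wild type). Of 13 known PPAR-gamma targets 6 rose in knockout and 4 in wild type and 0 fell, including the cholesterol exporter gene Abcg1 (0.72 in knockout, 0.65 in wild type). Of 11 lineage factors 3 rose and 3 fell in knockout, and 2 rose and 1 fell in wild type, with Id2 higher (0.52 in knockout, 0.42 in wild type). Of 10 factors of inflammatory activation 1 rose and 2 fell in knockout, and 1 rose and 1 fell in wild type, with Rel higher (0.53 in knockout, 0.39 in wild type). Of 7 tested inflammatory effectors of the kind IRF5 promotes 3 fell in knockout and 1 in wild type, and 0 rose. The chemokine gene Cxcl10 fell in both (-2.78 in knockout, -1.98 in wild type), while Irf5 itself did not pass in either.

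Between the genotypes few listed genes passed, and their counts are set against the 4.59 percent of tested genes called with IL-4 and the 4.52 percent called without it. With IL-4, 4 of 15 alternative activation genes were higher in knockout and 0 lower, beside the 2 factors: Mgl2 (1.19), the receptor gene Flt1 (1.18), the fusion gene Ocstamp (1.46) and the chemokine gene Ccl22 (1.37). Of the 15, Ccl22 was the 1 not called for IL-4 itself, at 0.85 in knockout and 0.11 in wild type. Values of these 4 genes within each set of replicates are not given here. Fosl2 (0.44), Klf8 (0.59) and Id2 (0.36) were also higher in knockout. The PPAR-gamma partner gene Rxra was lower with IL-4 (-0.34) and without it (-0.45). The targets Pdk4 (-2.14 with IL-4, -2.93 without) and Fabp5 (-0.29 with IL-4, -0.32 without) were lower in knockout in both states, and 0 of 13 targets were higher. Of the 7 tested inflammatory effectors 1 was higher and 1 lower in knockout without IL-4. These were the cytokine gene Tnf (0.66) and Ptgs2 (-2.21).

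The genes most like each factor were found by Pearson's r of log2 CPM over the 24 libraries, among 9521 genes. These values are descriptions, since the libraries fall into 4 groups and share scaling, and r of the deviations from group means is given second. For Egr2 they were the integrin gene Itgax (0.98, 0.89) and Tspan5 (0.98, 0.84), and for Bhlhe40 they were Tmem26 (0.99, 0.84) and Mcf2l (0.99, 0.72). Maf was most like Wwp1 (0.98, 0.90) and Ncapg2 (0.96, 0.83), Pparg most like Fgd6 (0.98, 0.84) and Aff1 (0.98, 0.75), and Klf4 most like Stt3b (0.98, 0.78) and Dse (0.96, 0.63). Batf3 followed the aryl hydrocarbon receptor gene Ahr (0.94, 0.82) and Themis2 (0.94, 0.81), and Pou2f2 followed Fnbp1 (0.97, 0.67) and Arrb2 (0.97, 0.60). Irf4 had Lipn (0.94, 0.40) and Znrf2 (0.94, 0.35), where little of the likeness was left within groups. Irf5 had the lowest values, with Gpr137b-ps (0.87, 0.82), a pseudogene whose reads may be those of its parent, and Sh2b3 (0.86, 0.85), and most of this was within groups.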

How the data were processed

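Macrophage RNA in 24 libraries was read as single ends of 40 bases, per the labels' protocols. The authors deposited whole-number expected counts for each gene and a length-scaled signal (GETMM). That signal is the deposited expected count times a factor for the gene and a factor for the library, checked on 13047 genes. Per the submitters' processing notes the tools included Bowtie2 2.3.4.1, RSEM 1.3.0, CASAVA 2.8.0 and edgeR, and the build was mm10, with no settings. Short reads may be split between overlapping or near-identical genes.

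The filterByExpr function (minimum count 10) kept 12797 of 54429 genes, which held 99.8% of counts. After TMM scaling (factors 0.926 to 1.06), edgeR 4.0.16 in R 4.3.3 fitted the 4 groups together with no covariate (robust glmQLFit, glmQLFTest). Benjamini-Hochberg adjustment ran across every tested gene, with 0.05 as threshold. SE is the size of the log2 fold change over the square root of F. Marker sums use total counts. The test was checked on simulated data with known changes. Libraries within a group differed by 2.58 to 67.8 in chi-square per degree of freedom, so each was kept as 1 replicate.

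The 9 genes, the gene lists and the tests were chosen with earlier results of these data known. Named from each list were up to 4 called genes with the smallest adjusted p, and for each factor the 2 most alike genes with average log2 CPM of at least 2. Coordinates are from GENCODE M21. Alternatives were RLE factors, DESeq2 1.42.0, no count filter, CPM of at least 1 in 6 libraries, fits of 2 groups, replicates 1 to 3 against 4 to 6 as a covariate, omission of 3 libraries numbered apart, limma 3.58.1 on log2(GETMM + 1), blocks, each set alone, each library left out, and median in place of mean GETMM.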

Additional observations from a re-analysis of the deposited data

Results flagged for a closer look

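Pou2f2 in wild type without IL-4 had 1 library apart from the others. Replicate 1 was 58.7 CPM, the next library 40.2 CPM and the lowest 31.4 CPM, a gap of 0.679 of the range against Dixon's 95% critical value of 0.625 for 6 samples. It was 1 of 36 groups of libraries tested, and chance flags about 1 in 20. Without this library the log2 fold change of Pou2f2 with IL-4 in wild type was -1.72 (adjusted p = 1.13e-09 by edgeR).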

How the results depend on the processing

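With IL-4, the 8 calls and all 9 directions were the same in each of the 12 other alternatives and 12 fits with a library left out, in both genotypes. For knockout over wild type with IL-4, 2 factors were called in 9 alternatives, 0 in replicates 1 to 3 alone, 6 in replicates 4 to 6 alone, and 1 to 2 with a library left out. Without IL-4, 0 were called except 2 in replicates 4 to 6 alone and 0 to 1 with a library left out. The difference between the responses gave 0, except 1 in replicates 4 to 6 alone, and 0 to 0 with a library left out. The causes were not tested.

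Signs turned only for values that did not pass in the fit of all libraries. In replicates 1 to 3 alone, knockout over wild type with IL-4 turned for Egr2 (-0.19), Klf4 (-0.0091), Batf3 (-0.53), Pou2f2 (0.062) and Bhlhe40 (-0.14), and the difference of responses for Irf4 (-0.34), Klf4 (-0.60) and Irf5 (0.052). In replicates 4 to 6 alone, knockout over wild type without IL-4 turned for Egr2 (0.14), Klf4 (-0.024), Batf3 (0.54) and Maf (-0.13), and Maf was -0.052 when 3 libraries numbered apart were left out. With 1 library left out, the ranges that crossed 0 were -0.051 to 0.10 for Maf without IL-4, -0.11 to 0.24 for Batf3 with IL-4, and -0.087 to 0.031 for Irf5 and -0.068 to 0.17 for Klf4 in the difference.

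Over all genes, the calls for IL-4 were 3024 in knockout and 2103 in wild type, against 1472 and 857 in replicates 1 to 3 alone. Knockout over wild type gave 588 with IL-4, against 305 in replicates 1 to 3 and 1056 in replicates 4 to 6, and 579 without IL-4, against 956 in replicates 4 to 6. The difference gave 0, against 1 by DESeq2, 3 by limma, 2 with a block by a number that 1 library with IL-4 and 1 without it share in the labels and 21 in replicates 4 to 6.

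Replicate numbers were not taken as pairs in the main fit. Same-numbered libraries with and without IL-4 share a number in the labels. Their deviations correlated above 0.1 in 4 of 6 pairs in knockout and 3 of 6 in wild type. Between the genotypes, which share no such number, this was 2 of 6 with IL-4 and 1 of 6 without it. These correlations do not settle whether libraries were paired. A block by replicate number called 8 factors for IL-4 in knockout, 8 in wild type, 2 between genotypes with IL-4, 0 without it and 0 for the difference. A block by the shared number in the labels, whose meaning they do not give, called 8, 8 and 0 for IL-4 in knockout, in wild type and the difference.

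On log2(GETMM + 1) the fold change of Irf4 was smaller, at 1.35 in knockout and 0.77 in wild type with IL-4, since the added 1 is near its level. Depth limits Irf4, Klf4 and Batf3, whose lowest libraries without IL-4 held 4, 12 and 7 counts.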
